A study of Mus musculus with 9 samples.

Results

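The hemidesmosome and anchoring fibril genes followed here are 7 genes: *Itga6*, *Itgb4*, *Col17a1*, *Dst*, *Plec*, *Cd151* and *Col7a1*. They were taken by symbol as the components that fasten a basal epithelial cell to the basement membrane and the basement membrane to the matrix under it. All 7 were present among the 19369 genes listed in the RNA-Seq data and all 7 passed the filter on low counts, which left 14771 genes to be tested. The data were 9 samples from wild-type C57BL/6 mouse embryos, 3 from each of 3 stages. The periocular neural crest (pNC), the migratory mesenchyme around the early eye, was taken at E10.5 after dispase treatment, with the lens vesicle, surface ectoderm and optic cup removed. Whole corneas were taken at the other 2 stages, E14.5 and E16.5, and every sample pooled tissue from several eyes. Age and tissue therefore cannot be told apart in any comparison with E10.5. Each value is an average over all cells of the sample, so that fewer cells of a type and less RNA per cell cannot be told apart.

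A hemidesmosome is a spot-like junction on the basal face of stratified and pseudostratified epithelia. The transmembrane integrin α6β4 and collagen XVII bind laminin-332 outside the cell, and inside it the plakins plectin and dystonin (BP230) join them to keratin filaments, while the tetraspanin CD151 sits beside the integrin. On the other side of the basement membrane, loops of collagen VII, the anchoring fibrils, hold it to the stroma. In the cornea these structures keep the epithelium on Bowman's layer and the stroma, and mutations in their genes cause blistering disease of the skin and eye.

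Expression of 5 of the 7 genes was higher in the cornea than in pNC at both corneal stages. *Itgb4*, *Col17a1* and *Col7a1* rose from at most 2.56 FPKM in pNC to at least 53.3 FPKM at E16.5, *Dst* and *Plec* rose from a moderate level, and *Itga6* and *Cd151* were already present in pNC and stayed within 2-fold. A gene was counted as higher or lower at an adjusted p under 0.05 in the quasi-likelihood test of edgeR, adjusted by Benjamini-Hochberg over all genes, and a log2 fold change of at least 1. By this rule 5 of 7 genes were higher at E14.5 than at E10.5, where 13.6% of all genes tested were, 5 of 7 were higher in E16.5 corneas than in pNC, where 19.4% were, and 3 of 7 were higher at E16.5 than at E14.5, where 6.26% were. None of the 7 was lower in any of the 3, where 7.97%, 15.4% and 5.47% of all genes were. The median log2 fold change of the 7 genes was 1.77, 2.74 and 0.97 in the 3 comparisons, against 0.01, 0.00 and -0.02 over all genes tested. The first 2 comparisons share the E10.5 samples, and each pair of comparisons shares a stage.

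The sequences before the transcription starts are shown for the 2 genes that rose most among those with an entry, *Col17a1* and *Col7a1*, and for the 2 *Dst* starts with an entry, whose transcripts differed in length between the stages. They are 250 bases up to the start, 5′ to 3′ on the gene's strand, from the RefSeq promoters of GRCm38.p6, which held 4 of the 7 genes. The bases after the start were found early in a transcript of the gene for *Col17a1* and *Col7a1*, but not for either *Dst* window. The next annotated *Dst* transcripts used here start past the window ends, at 34011813 and 34160330. Capitals mark a GC box (GGGCGG) or a TATA box (TATAAA) found on the printed strand.
Col17a1, chr19:47692043-47692292, minus strand: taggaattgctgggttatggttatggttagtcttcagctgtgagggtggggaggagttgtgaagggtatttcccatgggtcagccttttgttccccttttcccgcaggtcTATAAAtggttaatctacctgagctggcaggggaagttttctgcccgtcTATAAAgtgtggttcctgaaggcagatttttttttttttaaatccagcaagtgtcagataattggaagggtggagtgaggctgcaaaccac
Col7a1, chr9:108953336-108953585, plus strand: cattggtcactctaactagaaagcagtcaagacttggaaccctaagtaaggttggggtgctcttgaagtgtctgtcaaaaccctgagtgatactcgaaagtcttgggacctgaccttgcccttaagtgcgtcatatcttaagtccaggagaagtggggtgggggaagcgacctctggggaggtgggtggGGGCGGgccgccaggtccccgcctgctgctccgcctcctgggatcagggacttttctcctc
Dst, GC-rich start, chr1:34011345-34011594, plus strand: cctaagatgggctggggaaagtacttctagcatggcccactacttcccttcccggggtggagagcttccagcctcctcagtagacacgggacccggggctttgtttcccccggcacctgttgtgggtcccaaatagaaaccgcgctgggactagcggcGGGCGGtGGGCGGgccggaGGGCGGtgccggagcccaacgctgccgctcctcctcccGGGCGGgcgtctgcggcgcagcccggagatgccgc
Dst, internal start, chr1:34160010-34160259, plus strand: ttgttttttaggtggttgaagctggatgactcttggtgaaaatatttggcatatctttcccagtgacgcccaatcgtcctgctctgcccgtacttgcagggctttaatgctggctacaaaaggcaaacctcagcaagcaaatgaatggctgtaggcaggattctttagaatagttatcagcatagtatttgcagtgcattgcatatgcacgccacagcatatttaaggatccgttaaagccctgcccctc
Both strands were searched for 6 motifs. The *Col17a1* window held TATAAA at 2 places, 140 to 135 and 91 to 86 bases before the start, a motif held by 12.4% of 32817 promoter windows of the same length. The GC-rich *Dst* window, also inside the gene, held 4 GC boxes and the *Col7a1* window held 1, against 32.7% of windows with at least 1, and the internal *Dst* window held none. None of the 4 windows held the AP-1 letters TGANTCA (6.75% of windows) or the AP-2 letters GCCNNNGGC (13.7% of windows). The other motifs searched were CACCC (52.0% of windows) and the E box CANNTG (66.2% of windows). CACCC was in all but the internal *Dst* window, and the E box was in all but the *Col7a1* window. A match describes letters in a window and is not a site of binding.

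The 9 libraries held 8745161 to 9069023 expected counts, so that depth was nearly equal. Replicate 1 of E14.5 stood apart from its other 2 replicates: the summed FPKM (fragments per kilobase of transcript, scaled to the library's total) of 11 epithelial markers was 2112 in it and 703 and 823 in the others. That sum was 50.4 to 73.2 in pNC, as against 4716 to 6812 in E16.5 corneas, and in the corneas most of it came from keratins. The 6 markers that are not keratins summed to 235, 175 and 169.5 FPKM in the E14.5 replicates. In pNC they summed to 24.95 to 39.2 FPKM and in E16.5 corneas to 242 to 296 FPKM. All 11 epithelial markers, *Cdh1* and *Trp63* among them, had a mean of at least 1 FPKM at E10.5. Keratocyte markers summed to 178 to 286, 2739 to 6661 and 11206 to 14202 FPKM from the earliest to the latest stage. The labelled cornea thus held marker genes of epithelium and stroma, and markers of the corneal endothelium were not examined. Neuronal markers summed to 116 to 189 FPKM at E10.5 and to at most 2.68 in the corneas, and skeletal muscle markers to 21.3 to 23.1 and at most 0.77, with *Myod1*, *Myog* and *Myf5* not listed in any cornea. The part of these cell types in the results that follow was not tested.

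*Itgb4* (Entrez 192897, chromosome 11, 115974725 to 116008412 in GRCm38) encodes integrin β4, the chain that is largely restricted to hemidesmosomes. Its level was 0.35, 0.53 and 0.17 FPKM in the 3 E10.5 samples, from 9 to 29 expected counts. It was 39.0, 11.8 and 13.8 FPKM at E14.5 and 64.6, 53.3 and 54.8 FPKM at E16.5. The groups did not overlap, and replicate 1 of E14.5 lay between its own stage and the next. The log2 fold change was 5.92 (SE 0.54, edgeR adjusted p = 9.1e-06) for E14.5 against E10.5 and 7.51 (SE 0.55, edgeR adjusted p = 8.4e-07) for E16.5 against E10.5. Between the corneal stages it was 1.58 (SE 0.38, edgeR adjusted p = 0.00877), a 3.0-fold higher level.

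*Itga6* (Entrez 16403, chromosome 2, 71786886 to 71858427) encodes integrin α6, which pairs with β4 in hemidesmosomes and with β1 in many other cells. Its level was 16.3, 16.8 and 12.6 FPKM in pNC, 15.1, 12.4 and 11.8 FPKM at E14.5, and 20.7, 18.6 and 19.4 FPKM at E16.5. The E10.5 and E14.5 samples overlapped and the E16.5 samples lay above both. The log2 fold change was -0.23 (SE 0.12, edgeR adjusted p = 0.122) for E14.5 against E10.5, with a 95% interval from -0.47 to 0.00. It was 0.51 (SE 0.12, edgeR adjusted p = 0.00288) for E16.5 against E10.5 and 0.74 (SE 0.12, edgeR adjusted p = 0.00149) for E16.5 against E14.5, both under the 2-fold limit. The 2 chains of one receptor thus differed in course: the ratio of *Itga6* to *Itgb4*, each with 0.1 FPKM added, was 26.8 to 47.1 in the E10.5 samples, 0.39 to 1.05 in the next stage, and 0.32 to 0.35 in the last.

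*Col17a1* (Entrez 12821, chromosome 19, 47646341 to 47692042) encodes collagen XVII, a transmembrane collagen also called BP180. It stood at 0.49, 0.82 and 1.03 FPKM in pNC, from 24 to 50 expected counts. It reached 139.8, 51.2 and 61.0 FPKM at E14.5 and 221, 179 and 182 FPKM at E16.5, and no stage overlapped another. This was the largest fold change of the 7 genes in both comparisons with pNC, at log2 6.73 (SE 0.44, edgeR adjusted p = 8.9e-07) for E14.5 and 8.10 (SE 0.46, edgeR adjusted p = 1.8e-07) for E16.5. E16.5 was 2.59-fold above E14.5 (log2 1.37, SE 0.32, edgeR adjusted p = 0.00825).

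**Figure D1:**
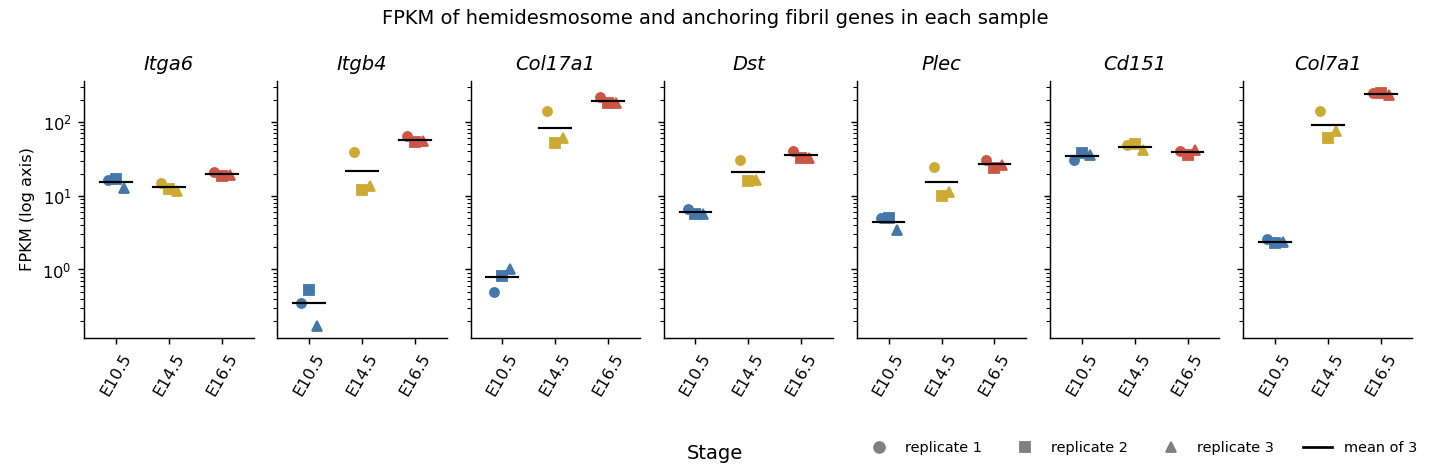
FPKM (log axis) of each of the 7 genes in the 3 samples of E10.5, E14.5 and E16.5, 1 panel per gene, with symbols for replicates 1, 2 and 3 and a bar at the mean. *Itgb4*, *Col17a1* and *Col7a1* climb over 2 or more decades from E10.5, *Dst* and *Plec* less, *Itga6* and *Cd151* stay nearly level, and replicate 1 of E14.5 lies above the other 2 replicates for 6 of the genes, at 1.25 to 3.05-fold of their mean.

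*Plec* (Entrez 18810, chromosome 15, 76170974 to 76231378) encodes plectin, a plakin that links the β4 tail to keratin and is also found in muscle and other cells. Its level was 4.93, 4.94 and 3.46 FPKM in pNC, 24.4, 10.02 and 11.4 FPKM at E14.5, and 30.3, 23.8 and 25.9 FPKM at E16.5. Both corneal groups lay above pNC, and replicate 1 of E14.5 fell within the E16.5 range. The log2 fold change was 1.77 (SE 0.30, edgeR adjusted p = 0.000517) at E14.5 and 2.74 (SE 0.30, edgeR adjusted p = 1.4e-05) at E16.5 against pNC. Between the corneal stages it was 0.97 (SE 0.28, edgeR adjusted p = 0.0230), just under the fold limit, and it was 1.47 without replicate 1 of E14.5, which passed the limit.

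*Dst* (Entrez 13518, chromosome 1, 33907888 to 34308662) encodes dystonin, a plakin known for long forms in nerve and muscle and for a short epithelial form, BP230, made from a start inside the gene. Its level was 6.60, 5.60 and 5.69 FPKM at E10.5, 30.7, 15.9 and 16.4 FPKM at E14.5, and 40.9, 32.2 and 33.0 FPKM at E16.5, with no overlap between the stages. Counts of reads gave a log2 fold change of 1.41 (SE 0.22, edgeR adjusted p = 0.000365) at E14.5 and 2.31 (SE 0.23, edgeR adjusted p = 6.1e-06) at E16.5 against pNC. The log2 ratio of mean FPKM, which divides by transcript length, was 1.82 and 2.57 for the same pairs. Between the corneal stages the count-based log2 fold change was 0.90 (SE 0.22, edgeR adjusted p = 0.00953), below the fold limit, and 1.26 without replicate 1 of E14.5, which passed it.

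FPKM divides by a mean transcript length that is given for each gene and sample, weighted by the estimated abundance of each transcript of the gene. For *Dst* the mean length was 17608, 17515 and 17178 bases in the 3 E10.5 samples. It was 13256, 13314 and 13414 bases at E14.5 and 13331, 13173 and 13003 bases at E16.5. The corneal samples thus lay in a narrow band, well below the pNC samples, and the 2 corneal stages overlapped. The stage means were 17434 ± 226, 13328 ± 79.8 and 13169 ± 164 bases in that order (SD, n = 3), a decrease of 24.5% from pNC to E16.5 (exact permutation test over the 9 samples, p = 0.0107, and 0.0214 after adjustment over the 4 genes with several transcripts). This measure was chosen after its values had been seen. Of 2648 genes with several transcripts, 5, or 0.189%, shortened by at least as large a share with no overlap between E10.5 and E16.5.

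The reference used for the counts held 4 *Dst* transcripts, of which 1 is short, at 8788 bases in GENCODE, lies from 34160330 to 34183904 on chromosome 1 and starts shortly after the internal window printed above. The other 3 are 17212, 23201 and 23251 bases long, and that of 23201 bases starts before both windows, at 33908225. With these lengths, the mean length alone allowed the short transcript a share of 0.0 to 42.0% of *Dst* molecules in the E10.5 samples, 45.1 to 69.1% in those of E14.5, and 46.1 to 70.9% in those of E16.5. The lengths in the files differed from GENCODE by -2.44 to 0.26% for the 3 genes with 1 transcript, and with errors of this size the ranges became 0.0 to 42.3%, 41.1 to 69.3% and 42.1 to 71.1%, so that their ends could meet. Levels were computed with the GENCODE lengths and without this error, which would widen their ranges. On this basis the short transcript stood at no more than 2.58 FPKM in pNC. It stood between 7.38 and 21.2 FPKM at E14.5 and between 15.4 and 28.1 FPKM at E16.5. The long transcripts together stood between 3.30 and 6.60 FPKM in pNC, 4.99 and 16.3 FPKM at E14.5 and 9.61 and 22.1 FPKM at E16.5. These ranges rest on the assignment of reads to transcripts in the deposited values, and the reads themselves were not analysed here. Neuronal and muscle markers were highest in the E10.5 samples, where the long forms predominated, and their part in the difference was not tested. The mean length of *Plec*, *Itgb4* and *Cd151*, the other genes with several transcripts, differed by at most 0.68% between E10.5 and E16.5.

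**Figure D2:**
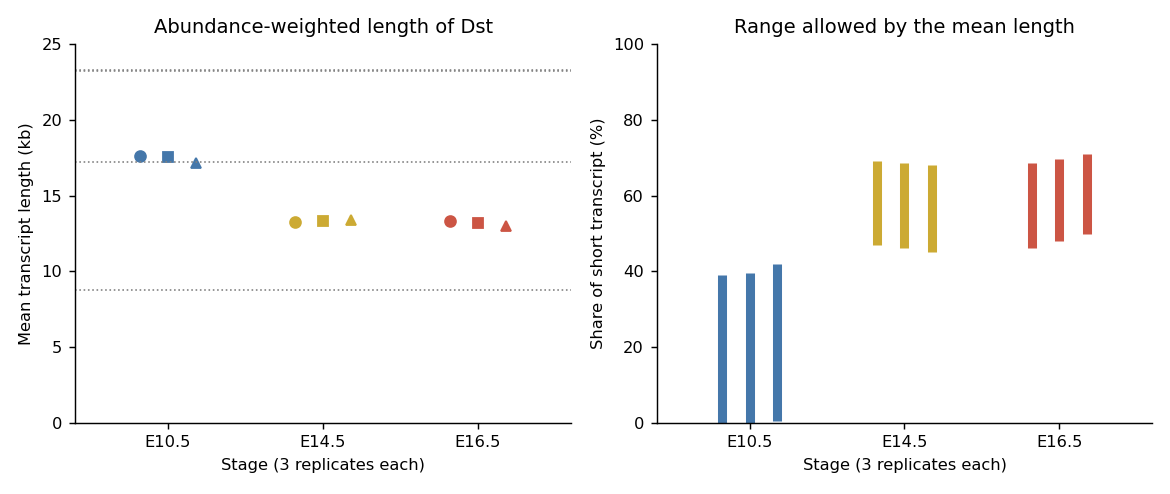
Left, abundance-weighted mean transcript length of *Dst* in kilobases in each of the 9 samples, with dotted lines at the lengths of the 4 annotated transcripts (the upper 2 nearly coincide). Right, the range of the share of the short transcript (%) that each mean length allows, which ends at 42.0% at E10.5 and begins at 45.1% in the corneas (42.3% and 41.1% with the length error given in the text).

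*Cd151* (Entrez 12476, chromosome 7, 141467362 to 141471481) encodes a tetraspanin that binds the laminin-binding integrins and is widely expressed. Its level was 30.8, 37.6 and 35.8 FPKM in pNC, 48.0, 49.5 and 41.6 FPKM at E14.5, and 40.3, 35.4 and 41.6 FPKM at E16.5. The E14.5 samples lay above the E10.5 samples, and the E16.5 samples overlapped both. The log2 fold change was 0.41 (SE 0.10, edgeR adjusted p = 0.00410) and 0.33 (SE 0.10, edgeR adjusted p = 0.0109) at E14.5 and E16.5 against pNC, under the fold limit. It was -0.09 (SE 0.10, edgeR adjusted p = 0.526) between the corneal stages.

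*Col7a1* (Entrez 12836, chromosome 9, 108953586 to 108984875) encodes collagen VII, the main component of anchoring fibrils. It was low and even in pNC, at 2.56, 2.25 and 2.33 FPKM from 191 to 215 expected counts. It rose to 139, 61.1 and 75.0 FPKM at E14.5 and to 249.3, 248 and 231 FPKM at E16.5, with no overlap between stages. The log2 fold change was 5.25 (SE 0.29, edgeR adjusted p = 3.2e-07) and 6.82 (SE 0.31, edgeR adjusted p = 6.1e-08) at E14.5 and E16.5 against pNC, and 1.57 (SE 0.24, edgeR adjusted p = 0.00123) between the corneal stages.

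**Figure D3:**
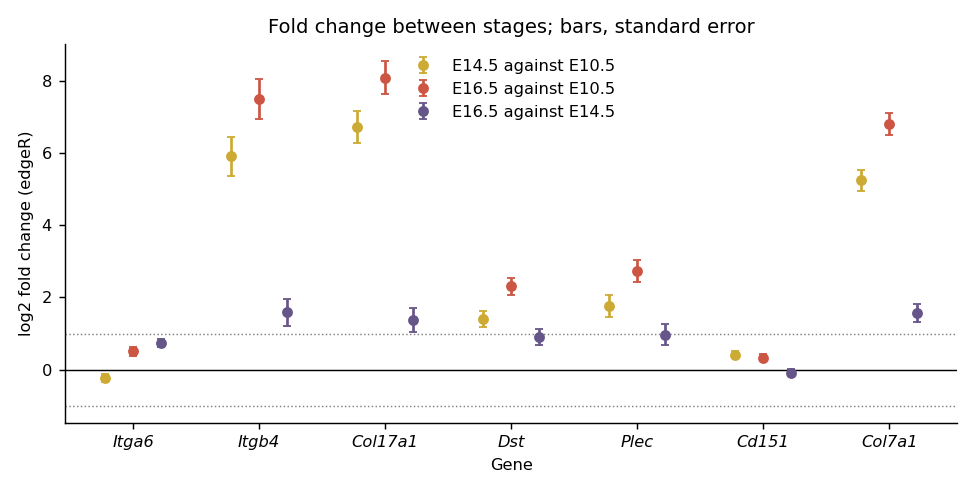
edgeR log2 fold change of each gene in the 3 comparisons of stages, with bars for the standard error and dotted lines at the 2-fold limit. *Col17a1*, *Itgb4* and *Col7a1* lie between 5.25 and 8.10 against E10.5, *Dst* and *Plec* between 1.41 and 2.74, and *Itga6* and *Cd151* inside the limit.

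The overlap of the raw values gave a similar picture to the test. All 3 E14.5 samples lay above all 3 E10.5 samples for 6 of 7 genes, where 31.4% of all genes tested did so, and the exception was *Itga6*. The E16.5 samples lay above the E10.5 samples for 6 of 7 genes, against 33.0% of all genes, with *Cd151* as the exception. The E16.5 samples lay above the E14.5 samples for 5 of 7 genes, against 14.8% of all genes, and here *Plec* and *Cd151* overlapped. Without the 2-fold minimum, *Cd151* at E14.5, *Itga6* and *Cd151* at E16.5 and, between the corneal stages, *Itga6*, *Dst* and *Plec* also passed the adjusted p of 0.05, as did 28.9%, 35.2% and 17.5% of all genes in the higher direction. None of the 7 passed in the lower direction, where 27.5%, 34.7% and 17.5% of all genes did.

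The order of the levels turned over between pNC and cornea. In FPKM, which is per length and can be set side by side between genes, *Cd151* led in pNC with 34.7 ± 3.54 (SD, n = 3), followed by *Itga6* (15.2 ± 2.28), *Dst* (5.96 ± 0.55), *Plec* (4.44 ± 0.85), *Col7a1* (2.38 ± 0.16), *Col17a1* (0.78 ± 0.27) and *Itgb4* (0.35 ± 0.18). The samples of neighbours in that order were separate but for *Col17a1* and *Itgb4*. At E14.5 *Col7a1* and *Col17a1* led with overlapping samples, *Cd151* followed, and *Itgb4*, *Dst*, *Plec* and *Itga6* overlapped each with the next. At E16.5 the order was *Col7a1*, *Col17a1* (194 ± 23.2), *Itgb4* (57.6 ± 6.11), *Cd151* (39.1 ± 3.24), *Dst* (35.4 ± 4.84), *Plec* (26.7 ± 3.32) and *Itga6* (19.5 ± 1.05), and the samples of *Cd151* and *Dst* overlapped. The integrin chain listed lowest in pNC was thus the third highest of the 7 at E16.5, and the partner chain *Itga6* was the lowest.

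Ratios between genes were taken within each library. Of 8 ratios, on the log2(FPKM + 0.1) scale, 5 differed between the stages (exact permutation test of the F statistic over 1680 assignments, two-sided, Benjamini-Hochberg adjusted over the 8). *Itga6*, *Dst*, *Plec* and *Cd151* each fell relative to *Itgb4* from E10.5 to E16.5. The log2 ratio of *Itga6* to *Itgb4* went from 5.16 ± 0.41 to -0.50 ± 0.76 and -1.55 ± 0.08, and those of *Dst*, *Plec* and *Cd151* to *Itgb4* ended 4.54, 4.51 and 6.91 lower at E16.5 than at E10.5 (SD, n = 3; each exact permutation p = 0.00357, the smallest that these data allow, adjusted 0.00714). *Col7a1* relative to *Col17a1* went from 1.54 ± 0.56 in pNC to 0.18 ± 0.17 and 0.33 ± 0.15 (exact permutation p = 0.0143, adjusted 0.0229). Over the same stages the log2 ratio of *Dst* to *Plec* was 0.43 ± 0.26, 0.51 ± 0.17 and 0.40 ± 0.05, and the exact permutation test gave an adjusted p of 0.775. *Col7a1* to *Itgb4* was 2.54 ± 0.64, 2.21 ± 0.33 and 2.08 ± 0.13 (exact permutation, adjusted p = 0.494), and *Col17a1* to *Itgb4* was 1.0 ± 0.93, 2.03 ± 0.17 and 1.75 ± 0.02 (exact permutation, adjusted p = 0.195). Every ratio to *Itgb4*, also those that differed, rests on its 9 to 29 counts in pNC. That of *Col7a1* to *Col17a1* rests on 24 to 50 counts of *Col17a1* there.

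Epithelial marker levels also differed between the corneal samples, so each gene was set against a reference of 6 general epithelial genes: the adhesion genes *Cdh1* and *Epcam*, the splicing factors *Esrp1* and *Esrp2*, and the transcription factors *Grhl2* and *Trp63*. The geometric mean of the 6 was 37.1, 27.7 and 26.9 FPKM at E14.5 and 45.0, 37.3 and 37.6 FPKM at E16.5. From E14.5 to E16.5 the log2 level relative to this mean was higher by 1.23 for *Itgb4*, 1.10 for *Col7a1*, 0.95 for *Col17a1*, 0.41 for *Dst* and 0.18 for *Itga6*, and in these 5 genes the 2 stages did not overlap, as in 6.78% of all genes tested. *Plec* was higher by 0.51 with overlapping samples (exact permutation p = 0.20), and *Cd151* differed by -0.64 with no overlap, as 58.8% of all genes did in that direction. The exact permutation p of the other 6 was 0.10, the smallest that 3 samples against 3 can give, so that no single gene could pass 0.05. Without *Epcam* in the reference 3 genes in place of 5 were higher with no overlap, and the difference for *Itga6* was -0.02. In replicate 1 of E14.5 the reference was 1.36-fold the mean of the other 2 replicates, whereas *Itgb4* was 3.05-fold, *Col17a1* 2.49-fold, *Plec* 2.28-fold, *Col7a1* 2.04-fold, *Dst* 1.89-fold, *Itga6* 1.25-fold and *Cd151* 1.06-fold. In pNC the reference was 3.42, 5.12 and 5.82 FPKM, and relative to it *Itgb4* (-3.46 ± 0.84), *Col17a1* (-2.46 ± 0.09) and *Col7a1* (-0.92 ± 0.48) stood lower, on the log2 scale, than in any cornea sample, as did 1.28% of all genes tested. *Itga6* (1.70 ± 0.57), *Cd151* (2.89 ± 0.28) and *Dst* (0.37 ± 0.52) stood higher than in any cornea sample, as did 92.1% of all genes, and *Plec* (-0.06 ± 0.63) overlapped the corneas.

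**Figure D4:**
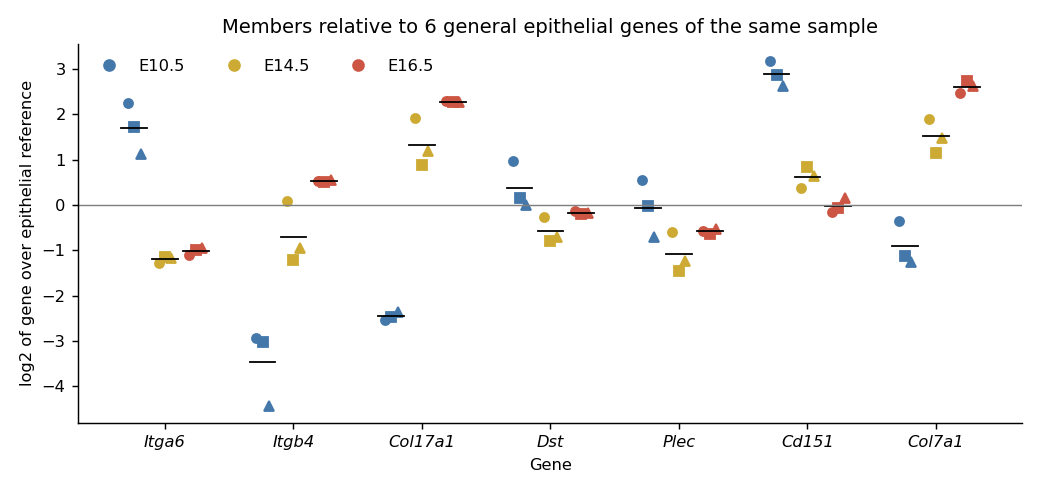
Log2 level of each gene over the geometric mean of 6 epithelial genes in the same sample, with a bar at each stage mean. *Itgb4*, *Col17a1* and *Col7a1* rise at each stage, the E14.5 samples are more spread than the E16.5 samples for these genes, and the other 4 genes have their highest mean at E10.5.

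*Lama3* and *Lamb3*, chains of the laminin that hemidesmosomes bind, were higher in each comparison. *Lama3* was at 0.083 FPKM in pNC, 4.20 in E14.5 corneas, then 12.1 in E16.5 corneas (log2 fold change of E16.5 against E10.5 7.28, SE 0.47, edgeR adjusted p = 4.0e-07), and *Lamb3* rose by log2 6.37 (SE 0.56). With library totals in place of TMM scaling, *Lamb3* was not called between the corneal stages. Of 8 other laminin chains, 4 were higher and 2 lower in E16.5 corneas than in pNC, where 19.4% and 15.4% of all genes were. Among them were the epithelial and widely found *Lama5* (log2 3.39, SE 0.16), the mesenchymal *Lama2* (2.12, SE 0.16) and the vascular *Lama4* (-2.57, SE 0.34). Summed FPKM of 6 vascular endothelial markers was 109 to 173 in pNC, as against 22.8 to 35.9 in E16.5 corneas. Of these, *Kdr* stayed level (mean 26.8 and 26.2 FPKM), and the others were called lower, *Pecam1* from a mean of 21.7 to 0.83 FPKM. The part of these markers in the *Lama4* value was not tested.

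Other integrin chains went both ways. Of 16 tested, 6 were higher and 5 lower at E16.5 than at E10.5, where 19.4% and 15.4% of all genes were. At E16.5 against E14.5 none was higher and 2 were lower, where 6.26% and 5.47% of all genes were. *Itga3*, the other laminin-332 receptor chain, rose from 8.06 ± 1.0 FPKM to 34.0 ± 6.7 and 38.6 ± 2.8 (SD, n = 3), with a log2 difference of 0.35 between the corneal stages (SE 0.13, edgeR adjusted p = 0.067), and the collagen receptor chain *Itga11* rose by log2 2.87 (SE 0.22) from E10.5 to E16.5. *Itga9* fell by 3.39 on the log2 scale (SE 0.45) and *Itga8* fell by 3.14 (SE 0.37). Of 20 other tetraspanins tested, 4 were higher and 5 lower at E16.5 than at E10.5, where 19.4% and 15.4% of all genes were. They were led by *Cd82* (log2 3.82, SE 0.34) and *Cd9* (3.12, SE 0.28) and by *Tspan18* (-2.48, SE 0.31) and *Tspan15* (-2.20, SE 0.16), and with library totals 3 in place of 4 were higher.

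Of the other plakins, 4 of 5 were higher in each comparison (3 of 5 between the corneal stages with library totals). Of all genes tested 13.6%, 19.4% and 6.26% were higher in the 3 comparisons. *Macf1*, the cytoskeletal linker most like *Dst*, was called in none. *Dsp* (desmoplakin) rose from 2.17 FPKM to 66.9 and 175 FPKM (log2 6.47 at E16.5 against E10.5, SE 0.33) and *Ppl* (periplakin) by log2 6.95 (SE 0.53). Desmosome genes were higher for 8 of 9 at E14.5 and 9 of 9 at E16.5 against pNC, with a median log2 fold change of 5.20 at E16.5. Between the corneal stages 6 of 9 were higher, with a median of 1.51, against 3 of 7 and 0.97 for the hemidesmosome and anchoring fibril genes. *Pkp1* reached 72.9 and *Dsg3* 14.6 FPKM at E16.5, both from under 0.1 FPKM in pNC. The basal keratins, to which the plakins attach, were higher in all 3 comparisons: *Krt5* rose by log2 9.49 (SE 0.51), *Krt14* by 8.13 (SE 1.01) and *Krt15* by 9.85 (SE 0.74) from E10.5 to E16.5.

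Among genes that fold, secrete and cleave procollagen, 2 of 12 in E14.5 and 7 of 12 in E16.5 corneas were called higher than in pNC. Of all genes tested 13.6% and 19.4% were, so that the E14.5 count is near the share of all genes. *P3h1* (log2 2.56, SE 0.17) and *Crtap* (2.33, SE 0.17), partners in prolyl 3-hydroxylation, led at E16.5. The genes of this list also serve the stromal collagens. Of the other transmembrane collagens, *Col25a1* fell by 1.37 on the log2 scale (SE 0.14) from E10.5 to E16.5, and *Col13a1* (log2 0.78, SE 0.31) and *Col23a1* (-0.52, SE 0.15) stayed under the fold limit. *Col13a1* was higher at E16.5 than at E14.5 (log2 1.74, SE 0.32). In the Fraser complex, which links epithelium and mesenchyme beneath the basement membrane before collagen VII matures, *Fras1* (log2 3.22, SE 0.20) and *Frem2* (1.31, SE 0.10) rose and *Frem1* fell by 4.12 (SE 0.51) from E10.5 to E16.5. *Frem1* was at 17.9 ± 1.1, 3.62 ± 2.5 and 0.94 ± 0.52 FPKM (SD, n = 3) from the first stage to the last. Of 3 further skin fragility genes, *Fermt1* (kindlin-1, log2 2.28, SE 0.25) and *Exph5* (4.6, SE 0.38) rose and *Klhl24* did not pass (log2 -0.05, SE 0.09). Over all 86 related genes tested, 35 were higher and 8 lower at E14.5 and 44 higher and 14 lower at E16.5 against E10.5, with medians of 0.75 and 1.15.

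**Figure D5:**
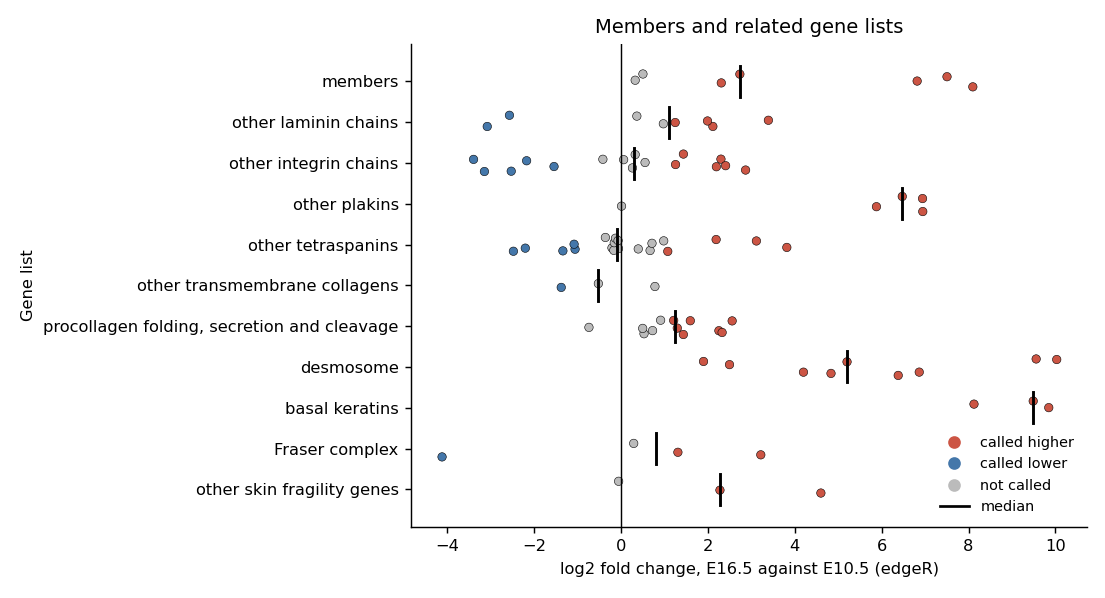
edgeR log2 fold change of E16.5 against E10.5 for the 7 genes (top row) and 10 related lists, 1 point per gene, coloured by whether it was called higher, lower or neither, with a bar at each median. The other plakins, desmosome genes and basal keratins lie well to the right of 0 except *Macf1*, which is at 0.01, while integrin chains, tetraspanins and the other laminin chains spread on both sides.

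Genes whose course was nearest to each of the 7 were found by the root mean square difference of centred log2(FPKM + 1) over the 9 samples, among 10942 genes of at least 5 FPKM in a stage. Among the 7 themselves *Dst* and *Plec* were the nearest pair, at 0.14, ahead of *Col17a1* and *Col7a1* (0.37), *Itga6* and *Cd151* (0.37) and *Itgb4* and *Col7a1* (0.41). With 0.1 FPKM added in place of 1 these 4 pairs were at 0.16, 0.67, 0.39 and 0.40, so that *Col17a1* and *Col7a1* came last of them. Outside the 7, *Col7a1* was nearest to *Dsp* (0.22), *Hspb1* (0.24) and *Abi3bp* (0.25), and *Col17a1* to *Anxa8* (0.19), *Calml3* (0.23) and *Anxa1* (0.31). *Itgb4* was nearest to *Fosl2* (0.13), *Ctsh* (0.15) and *Lgals7* (0.23), *Dst* to *Fam83g* (0.10), *Ctsl* (0.10) and *Acaa2* (0.12), and *Plec* to *Slc8b1* (0.11), *Fkbp11* (0.12) and *Cavin3* (0.12). The nearly level *Itga6* and *Cd151* were nearest to *Lrp4* (0.09), *Madd* (0.10) and *Abca7* (0.11), and to *Mettl23*, *2610001J05Rik* and *Terf2ip* (0.08 each). With 0.1 FPKM added in place of 1, 8 of these 21 genes were again among the nearest 3.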

How the data were processed

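RNA-Seq was measured in 9 pooled mouse samples, 3 each of E10.5 pNC, E14.5 cornea and E16.5 cornea, with groups and replicate numbers per the labels. The authors aligned reads with Bowtie2 and HISAT to GRCm38 and quantified them with RSEM, in versions not given in the sources used here. The values deposited by the authors were expected counts from RSEM, FPKM and the mean transcript length per gene, each per sample. Whether reads were counted by strand is not given. Exons of *Itgb4*, *Dst*, *Plec*, *Cd151* and *Col7a1* overlap those of other annotated genes over 36 to 1037 bases, and such reads may be shared. Expected counts were rounded and tested with edgeR 4.0.16 in R 4.3.3 (filterByExpr, TMM scaling, quasi-likelihood test, Benjamini-Hochberg adjustment over 14771 genes, all 9 samples in 1 model of stage). Genes were called at an adjusted p under 0.05 and a log2 fold change of at least 1. On simulated counts of 14547 genes for E16.5 against E10.5, 99% of genes changed by log2 1.5 were recovered. The simulation used the same spread for every gene and stage and changed only genes above a minimum mean count. It does not give the power at low counts or at the spread between these replicates. Ratios used log2(FPKM + 0.1) and exact permutation tests that went through all assignments of samples (Python 3.11.15, numpy 2.4.6). The replicates were separate pools of tissue, and p-values measure the spread between them. Gene positions are those of RefSeq, and exons, transcript lengths and the positions of *Dst* transcripts are those of GENCODE M21. Of 19369 gene IDs, 19312 matched a symbol.

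All 7 genes are named. From a related list of 3 or fewer all genes are named, except 1 that is not reported here, and from a longer one the called genes that rose most (2) and fell most (2) from E10.5 to E16.5 at a mean of 5 FPKM or more in some stage. *Macf1* and the *Dst* length were added after their values were seen. The genes and lists were chosen with earlier results of these data known. Alternatives were library totals, no low count filter, no minimum fold, the 2 stages compared only, a replicate block, limma 3.58.1 on log2 FPKM, DESeq2 1.42.0, the authors' NOISeq criterion recomputed (probability of at least 0.8), other pseudocounts and references, and leaving out each replicate.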

Additional observations from a re-analysis of the deposited data

How the results depend on the processing

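None of the alternatives changed the direction of a called fold change of the 7 genes: 326 recomputed values kept direction and side of the threshold and 10 newly passed it. Genes higher at E14.5 and at E16.5 against E10.5 stayed at 5 of 7 in each fit that leaves out 1 replicate. Between the corneal stages 3 of 7 became 5 without replicate 1 of E14.5 (*Dst* 1.26, edgeR adjusted p = 5.5e-06, and *Plec* 1.47, edgeR adjusted p = 8.8e-06) and 6 with no minimum fold, with a range of 3 to 5 over the fits that leave out 1 replicate. *Plec* also passed without replicate 2 of E16.5 (1.04, edgeR adjusted p = 0.043). Deviations of same-numbered samples from their stage mean had a mean correlation of -0.034 (-0.26 to 0.22), against 0.018 for other pairs. Deviations cancel within a stage, so these means are not independent. They do not settle whether same-numbered samples share more than a number. With the replicate block the counts were 5, 5 and 4 of 7, where *Plec* was at 1.05 (edgeR adjusted p = 0.0059), and over all genes 937 in place of 924 were higher at E16.5 than at E14.5.

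All-gene counts depended on the criterion. For E14.5 against E10.5, 2014 genes were higher and 1177 lower. These became 1286 and 736 by limma on log2(FPKM + 1), 941 and 535 by NOISeq and 4273 and 4055 with no minimum fold. With 0.1 FPKM added in place of 1, limma gave 1947 and 1144. For E16.5 against E10.5, 2862 and 2282 became 1694 and 1920 by NOISeq and 5197 and 5119 with no minimum fold. There limma gave 1856 higher with 1 FPKM added and 2482 with 0.1 FPKM added. For E16.5 against E14.5, 924 and 808 became 501 and 491, 381 and 401, and 2579 and 2585. Of the 7 genes, NOISeq called the same ones as edgeR in each comparison. Lower tetraspanins between the corneal stages were 2, or 4 with library totals.

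Ratios that differed between stages numbered 5 to 6 of 8 without 1 replicate and 7 with 1 FPKM added. *Col7a1* over *Itgb4* (-0.46 from E10.5 to E16.5) turned to 0.73 with 1 FPKM added. *Col17a1* over *Itgb4* (0.75) was 1.34 with 1 FPKM added and 1.28 without replicate 3 of E10.5. *Dst* over *Plec* (-0.027) was 0.027 with 1 FPKM added and -0.15 to 0.11 in the fits that leave out 1 replicate, with 0.11 without replicate 3 of E10.5 and 0.00078 without replicate 3 of E16.5. Relative to the epithelial reference, the 5 genes higher with no overlap ranged from 3 (without *Epcam*) to 6, and *Itga6* turned from 0.18 to -0.016 without *Epcam* and to -0.022 with *Cdh1* alone. The cause of these shifts was not tested. The E16.5 minus E10.5 difference in the mean length of *Dst* was -4393 to -4178 bases whichever replicate was left out. This check and that of the error in transcript lengths were added after seeing the data.

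*Itgb4* and *Col17a1* had only 9 to 50 counts in the E10.5 samples, on which their fold changes against E10.5 rest. The part of these low counts, and of the spread between the E14.5 replicates, in the standard errors was not tested.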
